A study of Rattus norvegicus with 12 samples.

Results

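Choroid plexus, the epithelial tissue that secretes cerebrospinal fluid, carries many solute carrier transporters. The genes described here are solute carriers outside the families for sugars, bicarbonate, chloride, monocarboxylates and several amino acids and vitamins. The set was selected on measured level and on name. A gene entered when its symbol began with SLC or SLCO, when its mean over all 12 libraries was at least 30 TPM (a transcript's share of its library, corrected for its length), and when it lay outside families 2, 3, 4, 7, 12, 16, 19, 20, 23, 24, 38 and 46 and was not SLCO1C1, SLC40A1, SLC11A2 or SLC22A8. Of 32883 genes in the files, 31 were kept, 11 of family SLC25 and 20 of other families. The tables that pair identifiers with symbols held 87 solute carrier symbols, 58 of them outside the excluded families and genes, and 27 of those lay under 30 TPM. Just inside the limit were SLC6A20 at 35.4 TPM and SLC35D1 at 31.2 TPM, and just outside were SLC35B2 at 29.1 TPM and SLC35A2 at 27.4 TPM.

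The tissue came from male Sprague-Dawley rats of 9 weeks kept on equal light and dark periods, with food and water freely available and with no genetic change or drug that separates the groups. The light-phase group held 6 rats taken at zeitgeber time 8 h (ZT8) and the dark-phase group 6 other rats taken at ZT20, each 8 h into its phase. All rats were anaesthetised with xylazine and ketamine before the plexuses of the lateral ventricles and of the ventricle of the hindbrain were taken, and each rat gave 1 library. Only 1 time point per phase was sampled, so a phase difference here is a difference between those hours.

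Symbols were paired with identifiers through the study's supplementary tables, and this sets what can be compared. At 60 TPM or more, 98.77% of 1703 genes had a symbol. Between 30 and 60 TPM only 41.63% of 1547 genes had one, because the table of all expressed genes, held in part here, ends at a light-phase mean near 50.6 TPM. Symbols below that level come from tables of genes that were called different between the phases. This also holds for SLC16A6, a gene that the rule left out, with 60.6 TPM over all libraries but 48.3 TPM in the light phase. Every member at 60 TPM or more has its symbol from the table of all expressed genes, whatever its phase difference. The 19 members at 60 TPM or more (8 SLC25 and 11 others) were therefore tested, and the other 12 are described by their values alone.

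Solute carriers move small molecules across membranes, each by binding its substrate on one side and releasing it on the other. Members of the SLC25 family sit mainly in the inner mitochondrial membrane, where they exchange ADP for ATP and let in phosphate, carboxylates, carnitine esters and glutathione. They are made in the cytosol and are handed from the outer-membrane TOM complex to the inner-membrane TIM22 complex. The remaining members serve the plasma membrane or internal membranes and handle vitamins, metals, anions, nucleotide sugars and polyamines. In the choroid plexus, carriers of the plasma membrane pass vitamins and other solutes between blood and cerebrospinal fluid.

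Upstream sequence is shown for 4 members chosen by their values: the tested member with the smallest p (SLC5A6), the most abundant SLC25 member that passed the test (SLC25A4), the member with the highest positive fold change among the 19 (SLC13A4), and the SLC25 member with the highest positive fold change of all (SLC25A33). SLC25A33 was not tested, since its symbol comes only from genes that were called different between the phases. The sequences are the 250 bases before the RefSeq gene start in build GRCr8 of the rat genome, written 5′ to 3′ along the gene. Capitals mark the E-box CACGTG, the site that CLOCK and BMAL1 bind, and the cAMP response element TGACGTCA; both read the same on either strand. SLC5A6 lies at chr6:31040150-31040399 on the plus strand, SLC25A4 at chr16:52805271-52805520 on the plus strand, SLC13A4 at chr4:64955987-64956236 on the minus strand and SLC25A33 at chr5:165502974-165503223 on the minus strand.
SLC5A6: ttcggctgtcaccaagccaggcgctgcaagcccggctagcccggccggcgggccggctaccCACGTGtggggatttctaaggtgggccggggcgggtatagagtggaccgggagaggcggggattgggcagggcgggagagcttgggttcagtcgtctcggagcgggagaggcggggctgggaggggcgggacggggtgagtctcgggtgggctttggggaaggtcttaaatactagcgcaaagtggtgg
SLC25A4: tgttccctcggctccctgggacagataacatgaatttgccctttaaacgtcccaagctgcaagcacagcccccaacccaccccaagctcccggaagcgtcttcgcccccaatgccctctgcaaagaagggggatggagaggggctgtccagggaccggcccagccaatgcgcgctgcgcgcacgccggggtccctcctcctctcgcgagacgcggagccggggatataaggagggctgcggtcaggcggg
SLC13A4: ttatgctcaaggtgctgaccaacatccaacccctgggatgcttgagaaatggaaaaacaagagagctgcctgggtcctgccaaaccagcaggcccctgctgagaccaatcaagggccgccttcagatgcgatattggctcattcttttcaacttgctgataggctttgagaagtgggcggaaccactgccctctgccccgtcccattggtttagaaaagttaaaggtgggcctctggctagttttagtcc
SLC25A33: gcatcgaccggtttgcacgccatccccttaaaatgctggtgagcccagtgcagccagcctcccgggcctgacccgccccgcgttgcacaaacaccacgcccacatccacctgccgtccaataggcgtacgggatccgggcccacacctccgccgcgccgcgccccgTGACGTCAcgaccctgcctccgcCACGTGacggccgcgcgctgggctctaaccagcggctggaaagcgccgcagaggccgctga

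RefSeq held a start window of 250 bases before to 50 bases after the start for 24 of the 31 members, 2 of them with a second entry. The E-box was found in 3 members (12.5%), in SLC5A6, SLC25A33 and the second entry of SLC66A2, and in 6.42% of all 33469 windows. The first share counts members with a match in any entry and the second counts single windows, so they are not like for like. Windows of the members were also richer in CG pairs, as given below, and the E-box contains a CG pair. SLC5A6 held it at 2 places, with first bases at position -189 and at position 7 after the start. In SLC25A33 it began at -61 and was preceded by the cAMP response element at -84, a motif that occurred in 1.83% of all windows and in no other matched member. SLC25A4 and SLC13A4 held neither in these windows. The windows of the 10 matched SLC25 members were rich in CG pairs, with a median of 26 and a range of 13 to 42, compared with a median of 24.5 in the 14 other members and of 7 over all windows. These matches describe letters only, and binding was not measured.

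The libraries and the tissue were checked first. No pair of libraries was identical, log2 values correlated at 0.958 to 0.983 between libraries, and the depth relative to the mean library, read from the steps in low FPKM values, was 0.871 to 1.404 in the light phase and 0.876 to 1.09 in the dark phase. The number of reads is not known, so no counting interval can be given and the spread between rats is the error used throughout. Summed over the 9 epithelial markers (TTR, FOLR1, KL, CLDN2, AQP1, KCNJ13, OTX2, PRLR and ENPP2), levels were 263623 to 314183 TPM in light-phase rats and 297475 to 321258 TPM in dark-phase rats, of which TTR, the thyroxine carrier protein, made up most. The defining markers of other cells were only partly paired with symbols (1 or 2 per list). PLVAP of endothelium was at 58.5 to 124 TPM in light-phase rats and 56.7 to 96.8 TPM in dark-phase rats, and HBB of blood at 1406 to 5535 and 839 to 2190 TPM. Light replicate 2 stood apart with the lowest epithelial sum and the highest PLVAP, mural (TAGLN and RGS5, 420 TPM) and HBB values. Single markers also moved with the phase. TAGLN, of smooth muscle, was lower in the dark phase (54.7 against 31.3 TPM, FDR 0.0270 by limma), as was the epithelial water channel AQP1 (604 against 472 TPM, FDR 0.00317), while KL, OTX2 and PRLR of the epithelium were higher (FDRs of 1.56e-05 to 0.00317). Their part in the results below was not tested. The results that depend on light replicate 2 are given without that library below. Total FPKM divided by total TPM, which follows the length of the transcripts sequenced, was 0.953 to 0.987 for light-phase libraries and 0.934 to 0.960 for dark-phase ones. It therefore moved with the phase, and its part in the results was not tested except through the covariate described below.

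The set spanned a wide range of levels and was dominated by a few genes. Together the 31 members made up 5607 to 6100 TPM per library, and the 6 most abundant held 69.9% of that. SLC22A17, a receptor for lipocalin-2 that takes up iron-loaded siderophores, ranked first at a mean of 1600 TPM and was 2.45 times as abundant as the next, SLC25A3, the mitochondrial phosphate carrier, at 653 TPM. SLC25A4 (ADP/ATP carrier ANT1) was next at 499 TPM, followed by the copper importer SLC31A1 at 476 TPM, the sodium-sulfate cotransporter SLC13A4 at 440 TPM and SLC25A5 (ADP/ATP carrier ANT2) at 394 TPM. Then came the organic anion transporter SLCO1A2 at 198 TPM and the 2-oxoglutarate/malate carrier SLC25A11 at 104.5 TPM. Of the 30 neighbouring pairs in this order, 4 did not overlap over the 12 libraries. Those were SLC22A17 over SLC25A3, SLC25A3 over SLC25A4, SLC25A5 over SLCO1A2 and SLCO1A2 over SLC25A11. From SLC25A11 downward each member overlapped the next, so the order there is loose.

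**Figure D1:**
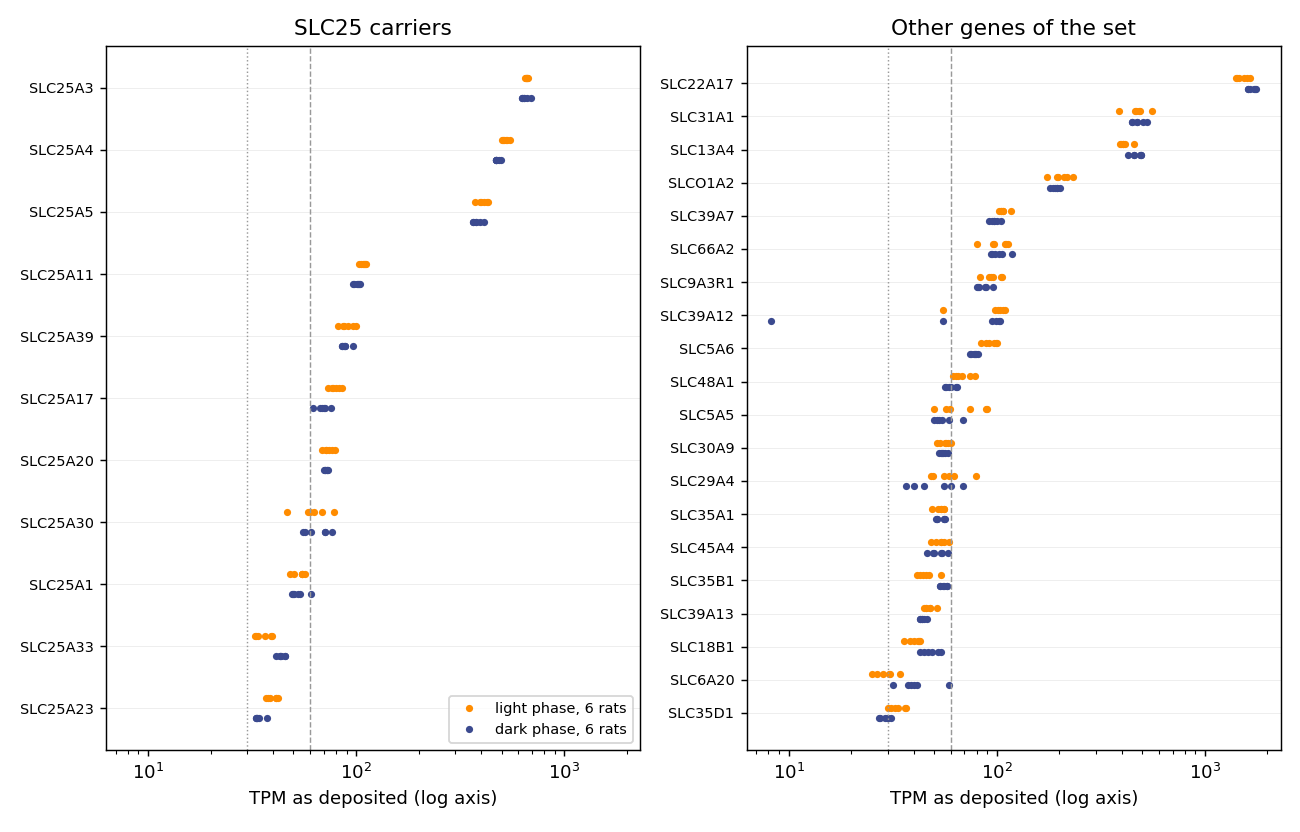
TPM as deposited in each of the 12 libraries, on a log axis, for the 11 SLC25 genes (left) and the 20 other genes (right), with light-phase rats in orange and dark-phase rats in blue. The dotted line is at 30 TPM and the dashed line at 60 TPM. For most genes the points of both phases lie close together, and SLC39A12 has 1 dark-phase rat at 8.26 TPM and 1 rat in each phase near 55 TPM.

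Phase differences in the set were small, and the members that passed the test were lower in the dark phase, although this depended in part on the scaling. Of the 19 tested members 5 were down-regulated in the dark phase relative to the light phase, and none was up-regulated (limma over all genes, FDR below 0.05). They were the vitamin transporter SLC5A6, the peroxisomal carrier SLC25A17, the ADP/ATP carrier SLC25A4, the 2-oxoglutarate/malate carrier SLC25A11 and the heme transporter SLC48A1. SLC13A4 and SLC39A7, which limma did not call, are among the genes that the study called different in its own test on read counts. With TPM as deposited, without further scaling, 6 members were called, 4 lower and 2 higher in the dark phase (SLC22A17 and SLC13A4), and with median of ratios scaling 6 were lower and 1 higher (SLC13A4). Among all 1703 genes of this level 22.4% were called, 12.6% lower and 9.86% higher in the dark phase, and among all 12513 genes tested 17.6% were called. With 5 of 19 called (26.3%) the set was near that background. An unadjusted p below 0.05 was reached by 10 of the 19, 2 of them with higher values in the dark phase, compared with 37.2% of all genes of this level (633 genes, 260 of them higher). The fitted change was negative for 14 of 19 members, compared with 58.3% of all genes of this level, and its median was -0.11 in the set, -0.02 over those genes and -0.01 over all genes tested. In whole tissue, fewer cells of a type and less RNA per cell cannot be told apart.

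SLC5A6 (ENSRNOG00000057628), the sodium-dependent transporter of biotin and pantothenate, had the smallest p of the set. Its level was lowest at 84.2, median 94.6 and highest at 100.4 TPM in the light phase, and 74.3, 78.1 and 81.1 TPM in dark-phase rats. Every light-phase rat thus lay above every dark-phase rat. Its mean came to 93.5 ± 6.44 TPM (SD, n = 6) in light-phase rats and 77.7 ± 2.55 TPM in dark-phase rats, 20.4% higher in the light, with a log2 fold change of -0.28 ± 0.06 (SE) and an FDR of 0.00439 by limma. Its start window held the E-box at 2 places, the first of which is in the sequence printed above and the second of which lies after the start. The call held without any single library.

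SLC25A17 (ENSRNOG00000018920) carries coenzyme A, FAD and NAD across the peroxisomal membrane and so is a SLC25 member that is not mitochondrial. It ran from 73.3 over a median of 78.6 to 85.2 TPM in the light phase, and from 62.4 over 69.0 to 75.5 TPM in dark-phase rats. The ranges overlapped at their edge, where the highest dark-phase rat exceeded the lowest light-phase rat. The light-phase mean was 79.3 ± 4.42 TPM and the dark-phase mean 69.0 ± 4.36 TPM, a difference of 15.0% (log2 fold change -0.22 ± 0.05, FDR 0.0116).

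SLC25A4 (ENSRNOG00000010830) exchanges cytosolic ADP for ATP made in the matrix and was the most abundant gene called. Its lowest, median and highest values were 503, 520.9 and 548 TPM in light-phase rats and 468, 471 and 496 TPM in dark-phase rats. The phases did not overlap, although the difference was only 9.40% (521.5 ± 16.8 against 476.7 ± 10.9 TPM, log2 fold change -0.15 ± 0.04, FDR 0.0229). Without light replicate 5 the FDR was 0.0503. The paralog SLC25A5 gave 373, 406.7 and 430.2 TPM in light-phase rats and 363, 378 and 414 TPM in dark-phase rats. Its phases overlapped and it did not pass the test (log2 fold change -0.11 ± 0.04, FDR 0.0925). Reads that match both copies were shared out by the authors' estimation, so the split between them carries some uncertainty. The sum of both was 928 ± 32.3 TPM in light-phase rats and 859 ± 28.4 TPM in dark-phase rats, and the ratio of SLC25A4 to SLC25A5 was 1.28 ± 0.06 and 1.25 ± 0.04.

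SLC25A11 (ENSRNOG00000003815), which takes part in the malate-aspartate shuttle, had 103.3, 108.8 and 111.4 TPM as lowest, median and highest in the light phase and 97.0, 101.7 and 104.2 TPM in dark-phase rats. The ranges overlapped only slightly, and the spread between rats (SD of 0.04 on the log2 scale) was so narrow that only 1.59% of genes of this level had a smaller one. The mean was 7.05% higher in light-phase rats (log2 fold change -0.11 ± 0.03, FDR 0.0261), and the call was lost without light replicate 4 or 6 or dark replicate 3 or 4, with FDRs of 0.0518 to 0.0591. With TPM as deposited the FDR was 0.0533.

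SLC48A1 (ENSRNOG00000053196) moves heme out of endosomes and lysosomes. It had 62.0, 66.4 and 78.7 TPM in light-phase rats and 56.6, 59.4 and 64.7 TPM in dark-phase rats, so the upper dark-phase rats lay among the lower light-phase rats. The mean was 14.2% higher in light-phase rats (log2 fold change -0.20 ± 0.06, FDR 0.0387). This was the least secure of the 5 calls: it was lost when any of 7 single libraries was left out (light replicates 2, 4 and 6 and dark replicates 1 to 4), with FDRs of 0.0578 to 0.0803, with TPM as deposited (0.0527) and with all genes above 0 TPM tested (0.0548). Its highest value was that of light replicate 2, the rat with the most HBB, and without it the log2 fold change was -0.18 with an FDR of 0.0702. In that fit 6 of the 19 members were called, with SLC39A7 (FDR 0.0201) and SLC9A3R1 (FDR 0.0173) in addition to the other 4.

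**Figure D2:**
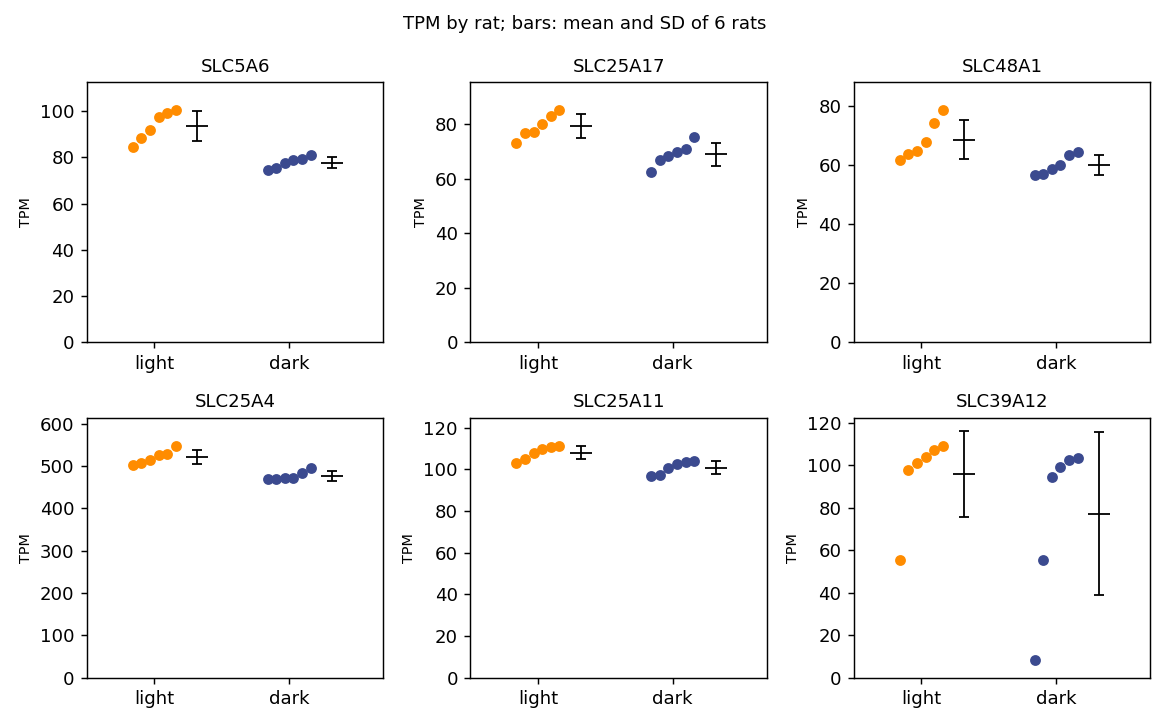
TPM of the 5 called members and of SLC39A12 in each rat, ordered by value within a phase, with the mean and SD of 6 rats as bars and the vertical axis starting at 0. SLC5A6 and SLC25A4 are separated by phase, SLC25A17, SLC25A11 and SLC48A1 overlap at the edges, and SLC39A12 has single rats far below the rest in both phases.

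The other tested mitochondrial carriers differed little. SLC25A3 ranged from 650 over 657 to 669.9 TPM in light-phase rats and from 627 over 640.3 to 689 TPM in dark-phase rats, with overlapping phases (log2 fold change -0.04 ± 0.04, FDR 0.469). The glutathione carrier SLC25A39 averaged 90.7 and 88.7 TPM in the light and dark phase, the carnitine-acylcarnitine carrier SLC25A20 averaged 73.7 and 71.6 TPM, and SLC25A30, a mitochondrial carrier first described in kidney, 62.4 and 65.1 TPM. These 3 had FDRs of 0.407 to 0.815. Counted as a family, with the peroxisomal SLC25A17 included, 3 of 8 tested SLC25 members (37.5%) were called and 7 of 8 (87.5%) had a negative fitted change. Among all genes of this level 22.4% were called and 58.3% had a negative fitted change. The fitted changes of the 8 ranged from -0.22 to 0.05, with a median of -0.08. Their summed level was 2001 ± 49.2 TPM in light-phase rats and 1902 ± 54.4 TPM in dark-phase rats, with overlapping ranges of 1920 to 2066 and 1847 to 2004 TPM. A sum over these members depends mainly on SLC25A3, SLC25A4 and SLC25A5.

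Of the 11 other tested members 2 (18.2%) were called and 7 (63.6%) had a negative fitted change, compared with 22.4% and 58.3% of all genes of this level. Their fitted changes had a median of -0.15 and a range of -0.65 to 0.17. Against the SLC25 members their fold changes were more scattered, and so were the rats within a phase, with a median SD of 0.11 against 0.07 on the log2 scale (0.09 over all genes of this level). The difference between both families was not tested, since members are not replicates. Unlike in the SLC25 family, the summed level was higher in the dark phase, at 3379 ± 136 TPM compared with 3238 ± 156 TPM. The ranges, 3221 to 3538 and 3071 to 3449 TPM, overlapped. SLC22A17 alone went from a mean of 1516 to 1683 TPM, more than the whole difference of the sums.

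SLC22A17 and SLC13A4 had the highest positive fold changes of the tested members, and whether they passed the test depended on the scaling. SLC22A17 had 1411, 1503 and 1655 TPM as lowest, median and highest in the light phase and 1610, 1687 and 1766 TPM in dark-phase rats. Most dark-phase rats lay above most light-phase rats, with some overlap (log2 fold change 0.14 ± 0.06, FDR 0.149), and with TPM as deposited the gene was called (0.15, FDR 0.0429). Over the alternatives its FDR was 0.0429 to 0.256. SLC13A4 had 391, 405.6 and 457 TPM in light-phase rats and 426, 473 and 493 TPM in dark-phase rats. Its overlap rested on light replicate 6, at 457 TPM where the other light-phase rats reached at most 414 TPM, and its FDR was 0.0505 with a log2 fold change of 0.17 ± 0.06. It was called without light replicate 6 or dark replicate 4, and also with TPM as deposited (FDR 0.0173), so this gene sits at the threshold. The study's own test on read counts called SLC13A4 different between the phases.

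SLC31A1, the high-affinity copper importer, had 387, 475.6 and 556 TPM in light-phase rats and 446, 472 and 529 TPM in dark-phase rats. The phases covered the same range (log2 fold change 0.00 ± 0.09, FDR 0.990). SLCO1A2 had 175, 204 and 232 TPM in light-phase rats and 181, 192 and 200.6 TPM in dark-phase rats, and the dark-phase rats lay within the light-phase range (FDR 0.260). SLC39A7, the zinc transporter that releases zinc from the endoplasmic reticulum, had 102.7, 106.2 and 116.5 TPM in light-phase rats and 91.5, 97.1 and 105.3 TPM in dark-phase rats, with an overlap of ranges and an FDR of 0.0536 (log2 fold change -0.15 ± 0.05). Like SLC13A4, it stood at the threshold and passed it under some alternative settings.

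Of the remaining tested members, the scaffold protein NHERF1, listed under its older symbol SLC9A3R1 and not itself a carrier, averaged 95.8 and 85.8 TPM in the light and dark phase (FDR 0.121). SLC66A2 averaged 101.3 and 102.3 TPM (FDR 0.992). The iodide transporter SLC5A5 averaged 70.1 ± 17.0 and 56.1 ± 6.91 TPM (log2 fold change -0.31 ± 0.14, FDR 0.172), a larger fitted change than in any called member but with a wider spread between rats. No overlap between phases was seen for 2 of the 19 members, SLC5A6 and SLC25A4, and for 13.6% of all genes of this level.

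**Figure D3:**
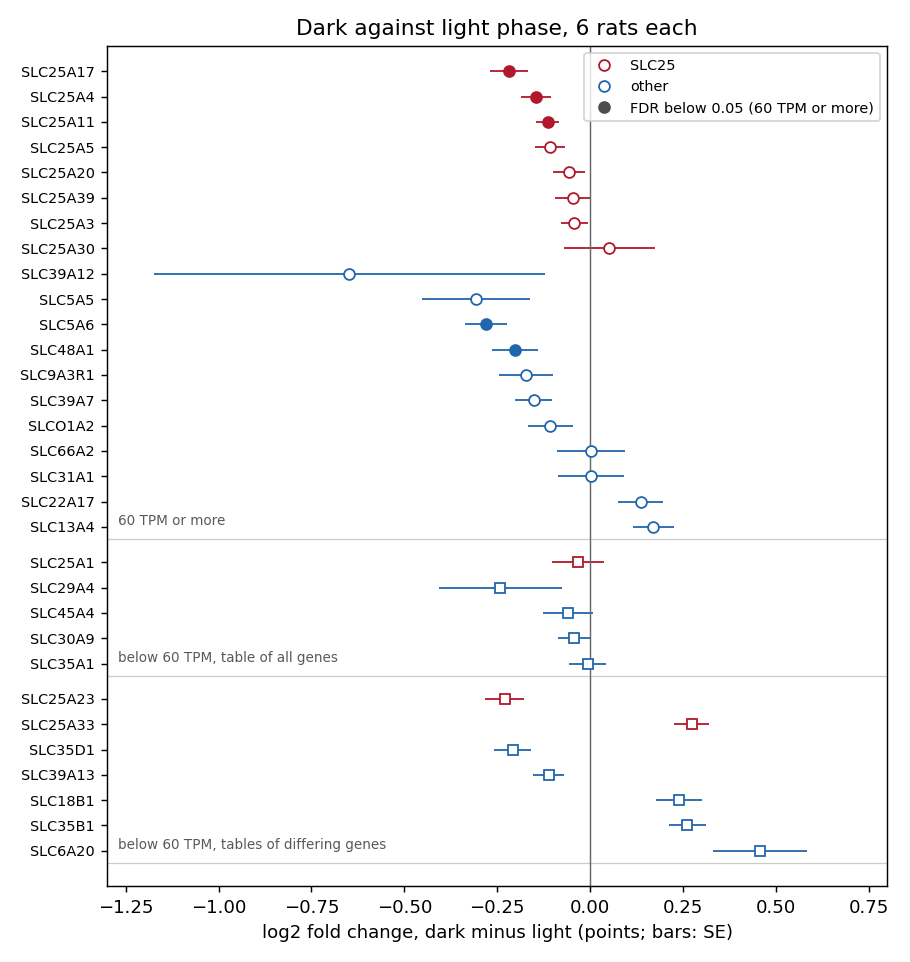
Fitted log2 fold change, dark minus light, with its SE for each of the 31 members, SLC25 in red and others in blue. Circles are the 19 members at 60 TPM or more, filled where the FDR was below 0.05, and squares are the 12 members below 60 TPM, for which no call is given. All 5 filled points lie left of 0, and the SE of SLC39A12 (0.53) is the widest.

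SLC39A12, a zinc importer of the plasma membrane, varied between rats more than any other member. Of the 6 light-phase rats 5 lay at 97.8 to 109 TPM and replicate 3 at 55.2 TPM. In the dark phase 4 rats lay at 94.5 to 103.6 TPM, replicate 4 at 55.4 TPM and replicate 6 at 8.26 TPM. The gene thus had 9 rats within a narrow band, 1 rat per phase near 55 TPM and a single rat with very little transcript. Its within-phase SD of 1.04 on the log2 scale exceeded that of 99.6% of genes at 60 TPM or more, and its fitted change of -0.65 ± 0.53 had an FDR of 0.438. In the same 3 libraries the epithelial marker sum was 313015, 318172 and 297475 TPM, and SLC6A20 had its highest value in dark replicate 6. The size of the fitted change of SLC39A12 rests largely on dark replicate 6, without which the log2 fold change was -0.09 and kept its sign.

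A high spread was also seen in 4 other members. SLC25A30 (46.6 to 78.3 TPM in the light phase), SLC5A5 (50.2 to 90.3 TPM), SLC29A4, the plasma membrane monoamine transporter (48.1 to 79.4 TPM), and SLC6A20, a transporter of proline and related imino acids, exceeded together with SLC39A12 the 90th percentile of within-phase SD at 60 TPM or more, which was 0.19. The values of SLC5A5 were highest in light replicates 2 and 4. SLC29A4 was highest in replicate 6 of both phases, and this agreement in number has no known meaning because the numbers do not pair the rats. At the other end were SLC25A11, SLC25A3 and SLC25A4.

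**Figure D4:**
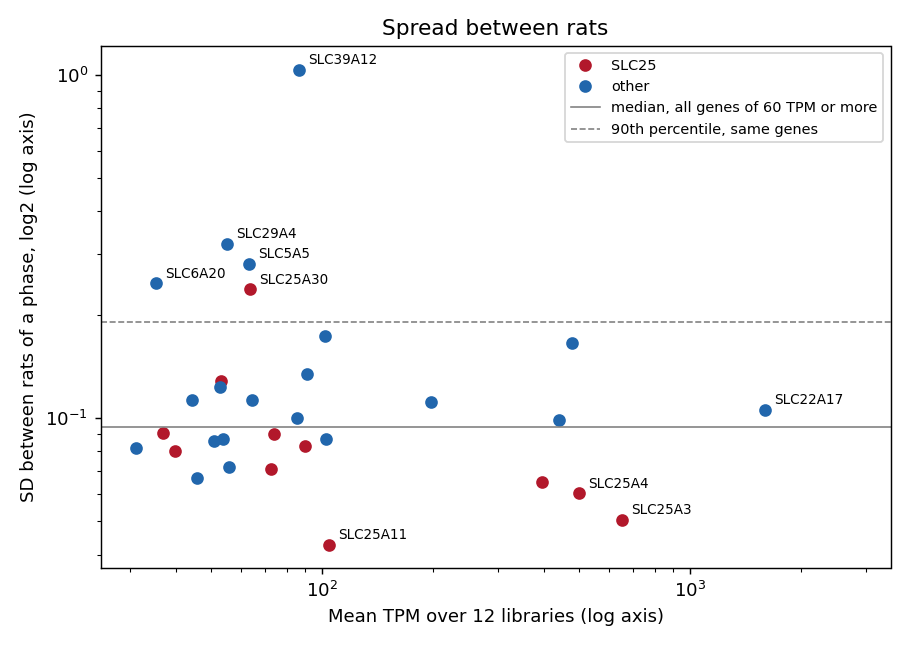
SD between rats of a phase on the log2 scale against mean TPM, both on log axes, for the 31 members. The solid line is the median over all genes of 60 TPM or more and the dashed line their 90th percentile (0.19); 5 members lie above the dashed line, with SLC39A12 at 1.04, and SLC25A11 is lowest at 0.04.

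Below 60 TPM, 5 members had a symbol from the table of all expressed genes. SLC30A9, a zinc transporter, had 51.9, 56.8 and 60.3 TPM as lowest, median and highest in the light phase and 52.8, 54.9 and 58.2 TPM in dark-phase rats. SLC35A1, which brings CMP-sialic acid into the Golgi, had 48.8, 54.0 and 56.0 TPM in light-phase rats and 51.4, 53.6 and 56.6 TPM in dark-phase rats. The citrate carrier SLC25A1 had 48.1, 54.9 and 56.7 TPM in light-phase rats and 49.4, 51.5 and 60.4 TPM in dark-phase rats. For these 3 the phases covered nearly the same values. SLC45A4 had 48.5, 53.8 and 58.7 TPM in light-phase rats and 46.4, 52.0 and 58.1 TPM in dark-phase rats. SLC29A4 had 48.1, 57.3 and 79.4 TPM in light-phase rats and 36.7, 50.2 and 68.5 TPM in dark-phase rats, again with wide overlap. Fitted changes of the 5 were -0.24 to -0.01. The table of all expressed genes, as held here, ends at a light-phase mean near 50.6 TPM. At a given overall mean it therefore favours genes higher in the light phase, so these directions are no evidence on the set.

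The 7 members with a symbol only from tables of differing genes were chosen in part on the phase contrast itself, and the part held of the larger of these tables favours genes higher in the dark phase, so their directions are no evidence on the set. Higher means in the dark phase were seen for 4 of them. SLC25A33, the mitochondrial pyrimidine nucleotide carrier whose upstream sequence is shown above, averaged 35.8 ± 2.97 TPM in light-phase rats and 43.7 ± 1.64 TPM in dark-phase rats. SLC35B1, which brings ATP into the endoplasmic reticulum, averaged 45.9 ± 4.46 and 55.5 ± 2.07 TPM. For the polyamine transporter SLC18B1 the means were 40.2 ± 2.69 and 48.2 ± 4.24 TPM, and for SLC6A20 29.3 ± 3.19 and 41.5 ± 9.27 TPM. Lower means in the dark phase were seen for SLC25A23, the calcium-regulated ATP-magnesium/phosphate carrier (39.7 ± 2.26 and 34.1 ± 1.60 TPM), for SLC35D1, a carrier of UDP-sugars into the endoplasmic reticulum (33.3 ± 2.72 and 29.1 ± 1.48 TPM), and for the zinc transporter SLC39A13 (47.1 ± 2.39 and 44.1 ± 1.29 TPM). Both phases were fully separated for SLC25A33 and SLC18B1, and a choice on the phase contrast favours such separation.

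Genes that work with these carriers were read from 8 lists. Together the lists held 33 genes at 60 TPM or more, of which 6 (18.2%) were called, 5 lower and 1 higher in the dark phase, a share below the 22.4% over all genes of this level. In the list for import of mitochondrial carriers, 2 of 5 such genes were called, both receptors of the outer-membrane TOM complex. TOMM20 fell from 224.6 ± 7.37 to 195.9 ± 4.56 TPM without overlap (log2 fold change -0.21 ± 0.03, FDR 0.000348), and TOMM22 from 70.2 to 65.2 TPM (FDR 0.0441). TOMM5, TOMM6 and TOMM7, the small TOM subunits, were not called, and TIMM29, a subunit of the TIM22 complex below 60 TPM, averaged 28.9 and 32.7 TPM in the light and dark phase. In the list for carnitine and fatty acid oxidation, which lies downstream of SLC25A20, 2 of 8 were called. These were ACADVL, the very long-chain acyl-CoA dehydrogenase (82.1 to 71.0 TPM, FDR 0.00567), and DECR1, which handles unsaturated chains (113.9 to 100.03 TPM, FDR 0.0454). In the list for citrate and malate shuttles, 2 of 6 were called. GOT1, the cytosolic aspartate transaminase that works with SLC25A11, was higher in the dark phase (69.6 against 78.9 TPM, FDR 0.0175), and its mitochondrial counterpart GOT2 was lower (190.5 against 180.1 TPM, FDR 0.0375).

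No gene of 60 TPM or more was called by limma in the other 5 lists, compared with 22.4% of all genes of this level. Of their 14 genes 3 had an unadjusted limma p below 0.05, compared with 37.2% of all genes of this level. In the list for the mitochondrial outer membrane and nucleotide exchange, 3 genes were of this level, the porins VDAC1, VDAC2 and VDAC3, with a median log2 fold change of -0.01. Sulfate activation and use held 2 such genes, zinc and copper handling 6, nucleotide sugar supply 2, and the NHERF1 and ERM scaffold 1, ezrin (EZR, 512.5 and 489.7 TPM, FDR 0.339). Under 60 TPM, where symbols depend on the contrast, values can be given but no count. The genes named here, and TIMM29 above, were picked because limma called them (FDR below 0.05). Genes of the lists below this level that were not called, such as HADH (FDR 0.110) and CS (FDR 0.772), are not described. The matrix adenylate kinase AK3 averaged 60.9 and 49.2 TPM in the light and dark phase, the carnitine acetyltransferase CRAT 23.5 and 34.0 TPM, and CPT1A, which forms the acylcarnitines that SLC25A20 carries, 31.6 and 27.2 TPM. The sulfotransferase SULT1A1 averaged 44.0 and 75.5 TPM, the copper pump ATP7A 11.3 and 13.7 TPM, and the enzyme UGDH, which makes UDP-glucuronate, 23.9 and 27.8 TPM. The metallothionein MT1 averaged 71.6 ± 22.0 and 38.3 ± 6.07 TPM (SD), with overlapping phases. The more abundant metallothionein MT3 of the same list was not called and had the opposite order, at 244 ± 35.0 and 280 ± 43.6 TPM (FDR 0.358 by limma). Among 17 solute carrier genes of 60 TPM or more that the rule left out, 13 (76.5%) were called, 8 higher and 5 lower in the dark phase. Among all genes of this level 22.4% were called. SLC16A6, called higher, averaged 48.3 TPM in the light phase, so its symbol comes from genes that were called different between the phases. These 17 genes were left out with results of these data known, so the contrast with the 5 of 19 here is a description.

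All 5 calls were lost in 1 alternative fit. With that ratio of FPKM to TPM totals (log2) as a covariate, 0 of the 19 members were called by limma, at 341 calls over all genes, and 3 members reached an unadjusted p below 0.05, and the fitted change was -0.19 for SLC5A6, -0.14 for SLC25A17, -0.07 for SLC25A4, -0.10 for SLC25A11 and -0.18 for SLC48A1. The ratio differs between the phases, so the phase and the ratio cannot be fully told apart in this fit.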

How the data were processed

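Choroid plexus RNA of 12 rats, 6 per phase, was sequenced as paired reads, 1 library per rat. The authors aligned reads to Rnor_6.0 with STAR 2.7.9a and quantified 32883 Ensembl genes with RSEM 1.3.3, and they deposited TPM and FPKM per gene and library. RSEM shares reads that match several genes among them. The strand setting is not given in the sources used here. The TPM values, used as deposited by the authors, were scaled by a trimmed mean of ratios (30% of ratios and 5% of levels at each end) and taken as log2(TPM + 0.5), which understates changes of low genes. The deposited FPKM values served for the relative depth, the FPKM to TPM ratio and an alternative fit. The authors tested read counts with DESeq2. As the files hold no counts, limma 3.58.1 in R 4.3.3 was run on the 12513 genes that averaged at least 1 TPM, with phase alone, a variance trend and Benjamini-Hochberg adjustment (FDR). On simulated data for this comparison over 12513 genes, 92.31% of 104 genes changed by 0.5 (log2) and 98.96% of 96 changed by 1 were recovered, with 14 unchanged genes called. The fitted log2 changes of the 5 called members were smaller in size, at -0.28 to -0.11, and recovery at that size was not tested. The changed genes of the simulation were drawn from the more abundant genes only, so recovery at low levels was not tested either. Members and lists were chosen with earlier results of these data known. All members are named; library ranges are given for called members, the 3 most abundant SLC25 members, the 5 most abundant others and members below 60 TPM with a symbol from the table of all genes. Of the lists, called genes with the 3 smallest p per list were named, at least 1 per list, and DECR1, MT3, the porins and the small TOM subunits after their values were seen. Rats of a phase were separate animals. Same-numbered rats did not deviate together. Figures were drawn with matplotlib 3.10.9. Alternatives in scaling, pseudocount, filter, unit, weights, covariate, block and single libraries are given in the closing section. The level of 1 cell type marker list is not reported here.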

Additional observations from a re-analysis of the deposited data

Results flagged for a closer look

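Within each phase, the highest and lowest rat of each of the 31 members was compared with its neighbours by Dixon's ratio (the gap to the nearest rat over the whole range). Of the 62 groups examined 6 exceeded the 95% critical value for 6 rats, where chance gives about 1 in 20 groups (3.1).

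SLC39A12 in light replicate 3 was at 55.2 TPM, where the nearest light-phase rat was at 97.8 TPM (ratio 0.789). The dark phase, with low values in replicates 4 and 6, did not exceed the limit, since a second low value hides the first in this measure.

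SLC13A4 in light replicate 6 was at 457.4 TPM above a next value of 413.8 TPM (ratio 0.658), and SLC39A7 in the same library at 116.5 TPM above 107.5 TPM (0.656). SLC25A39 in dark replicate 2 was at 96.9 TPM above 88.5 TPM (0.712), and SLC25A23 in that library at 37.3 TPM above 34.3 TPM (0.69). SLC6A20 in dark replicate 6 was at 59.1 TPM above 41.4 TPM (0.645). The causes were not tested.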

How the results depend on the processing

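Of the 19 members tested, 5 were called in the fit reported. The count was 3 with the replicate number as a block, 0 with the FPKM to TPM ratio as covariate and 3 to 6 with single libraries left out, with 3 without light replicate 4 or dark replicate 3. Other settings gave 4 to 7 calls. For the 8 SLC25 members the count of 3 became 0 with the covariate, and was 2 with TPM as deposited, 2 with the block and 2 to 3 without single libraries. For the 11 others the count of 2 became 4 with TPM as deposited, 4 with median of ratios scaling, 4 with library weights and 4 with genes of at least 5 TPM. It became 1 with all genes above 0 TPM, 1 with the block, 0 with the covariate, and 1 to 3 without single libraries. With TPM as deposited, SLC25A11 and SLC48A1 were lost and SLC22A17, SLC13A4 and SLC39A7 gained, for 2 members higher and 4 lower in the dark phase. With the block, SLC25A11 (FDR 0.0752) and SLC48A1 (0.0654) were lost. The causes were not tested. The covariate fit also reduced the calls over all genes from 2204 to 341.

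Direction changed, with all FDRs above 0.05, for SLC25A3 (0.0142) and SLC25A20 (0.0504) with the covariate, for SLC31A1 (-0.0342) and SLC25A30 (-0.0294) with library weights, and without single libraries for SLC31A1 (-0.0697 to 0.0581), SLC66A2 (-0.0594 to 0.0445) and SLC25A30 (-0.0437 to 0.121). SLC5A6 and SLC25A17 were called under every alternative except the covariate, and SLC25A4 under all but the covariate and the fit without light replicate 5.

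The replicate numbers do not pair the rats. Deviations of same-numbered rats correlated at -0.107 to 0.0468 over 6 pairs, 0 of them above 0.1 and 0 with the best match in their own number, so the block result is given for completeness. Symbols from a reference gene table were not run as an alternative, because the table used here pairs no Ensembl identifiers. The read depth behind each value is unknown, and only the spread between rats limits the differences.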
